A study of Mus musculus with 4 samples.

Results

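Insulin and insulin-like growth factor (IGF) signalling was followed through 10 genes in mouse heart and tibialis anterior (TA), a fast skeletal muscle of the shin. The genes were chosen by symbol: the ligands Igf1 and Igf2, the receptors Insr and Igf1r, the receptor substrates Irs1 and Irs2, the kinases Akt1 and Akt2, and the forkhead factors Foxo1 and Foxo3. All 10 were listed in both tissues' tables, among 10791 genes listed for heart, 10352 for TA and 9906 for both. The animals were male C57BL/6J mice 10 weeks old, with no transgene, treatment or diet named in the labels. Each tissue gave 2 libraries from 1 lysate: ribosome-protected fragments (RPF, the short mRNA pieces covered by ribosomes after RNase digestion) and ribosomal RNA-depleted total RNA (RNA). Each of the 4 groups was 1 library, so differences below could not be set against a spread between replicates, and no p-values were computed. The number of animals per lysate was not given in the sources used here.

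Insulin and the IGFs bind related receptor tyrosine kinases, which phosphorylate the IRS proteins. These recruit phosphoinositide 3-kinase, and the lipid it makes brings Akt to the membrane for activation. Akt then drives glucose uptake and protein synthesis and keeps the FoxO factors out of the nucleus, where in striated muscle they switch on genes of protein breakdown and autophagy. RNA and ribosome occupancy say nothing of phosphorylation, the step at which this pathway is mainly regulated.

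Footprints ahead of the coding sequence are described below for the receptor, the Akt pair and Foxo1, so the start sites of these genes are shown here. Each line holds 25 bases of the mRNA from 5' to 3', written as DNA, with the start triplet in capitals, from GENCODE M21 transcripts (mouse build GRCm38). Upstream start triplets are numbered from the 5' end.
Insr upstream ATG: tctcacggagtATGtccccagtagg
Insr coding start: ctcctactgctATGggcttcgggag
Akt1 upstream ATG: ccgcccgcgggATGcggagcggcgg
Akt1 coding start: ccacggataccATGaacgacgtagc
Akt2 upstream ATG 1: cttgcggtctgATGttttctgaggc
Akt2 upstream ATG 2: tcagcgtggcgATGggcgggggtag
Akt2 upstream ATG 3: gagcctcctgcATGtcctgctgccc
Akt2 upstream ATG 4: acagcgtgtgaATGctgccaccatg
Akt2 coding start: atgctgccaccATGaatgaggtatc
Foxo1 coding start: gcgggggcaccATGgccgaagcgcc

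The Insr triplet lies 61 nt ahead of the receptor's own start and opens a reading frame of 10 codons that ends before it. The Akt1 triplet lies 159 nt ahead and opens 12 codons. Akt2 holds 4 such triplets, the last 11 nt ahead of the coding start and in a frame that runs across it, while Foxo1 holds none, Foxo3 1 and Irs1 5. ATG was searched on the mRNA strand only. Of 10182 genes listed in heart whose matched transcript has a 5'UTR (the untranslated stretch ahead of the coding sequence) of at least 30 nt, 53.6% hold at least 1 ATG, and of the 1095 with 400 to under 600 nt 87.0% do, with a median of 3.0. The 5'UTR of the GENCODE model equals the deposited length in Insr (489 nt), Akt1 (370 nt) and Foxo3 (325 nt) and is within 8 nt of it in Akt2 (413 against 405 nt) and Foxo1 (466 against 465 nt). In Irs1 it is shorter than the deposited one (923 against 946 nt). It differs widely in Igf1, Igf1r and Igf2, whose upstream sequence was therefore not described. A match is a description of letters, not of a site in use.

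Values are RPM, the reads on a region scaled to a fixed total of coding reads, and, where genes are compared with each other, RPM per kb of the region. The coding reads behind them were 28120000 (RPF) and 9280000 (RNA) in heart, and 28560000 and 16050000 in TA. Cardiomyocyte markers summed to 105113.6 RPM of RNA in heart and 226.6 in TA, and fast-fibre markers to 167.4 and 190822.5, as the tissue labels say. Most listed genes sat higher in heart: the median log2 ratio of heart to TA was 0.70 in RNA and 0.60 in RPF over 9843 genes. Ratios of the 10 genes are given below as deposited, and again relative to that median gene where this changes the reading. Ratios of the other pathway genes are given as deposited only. Endothelial markers were at least 2-fold higher in heart in 8 of 8 genes (1278.3 against 293.8 RPM summed) and macrophage markers in 10 of 10 (419.8 against 93.6). Adipocyte and satellite cell markers were not listed in heart. The part of these cells in the results below was not tested, and in bulk tissue fewer cells of a type and less RNA per cell cannot be told apart. All intervals are at 95% and cover counting error only.

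Per kb of coding sequence, the signalling kinases and the insulin receptor carried the most RNA in heart, and the ligands and Irs2 the least. In heart RNA the order ran from Akt1 (93.0 RPM per kb), Akt2 (91.2) and Insr (66.5) through Foxo3 (29.6), Irs1 (15.0), Foxo1 (11.7) and Igf1r (11.7) to Igf1 (5.42), Igf2 (4.70) and Irs2 (3.51), beside 14.8 for the median listed gene. Neighbours not separated by counting error, where the interval of their ratio holds 1, were Akt1 and Akt2, Foxo1 and Igf1r, Igf1 and Igf2, and Igf2 and Irs2. In TA RNA Akt2 stood alone at the top (110 RPM per kb), ahead of Irs1 (30.7), Insr (26.6) and Akt1 (23.0). The other 6 TA levels lay between 3.16 and 6.10 RPM per kb, below the median gene at 9.39, and no neighbours among them could be separated by counting error. In ribosome footprints Foxo3 led in heart (71.7 RPM per kb), though it was only the fourth in RNA. Akt2 led in TA footprints (37.7 RPM per kb) as in TA RNA, and the 6 genes from Irs1 (14.2) down to Foxo1 (10.9) could not be separated there from their neighbours.

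**Figure D1:**
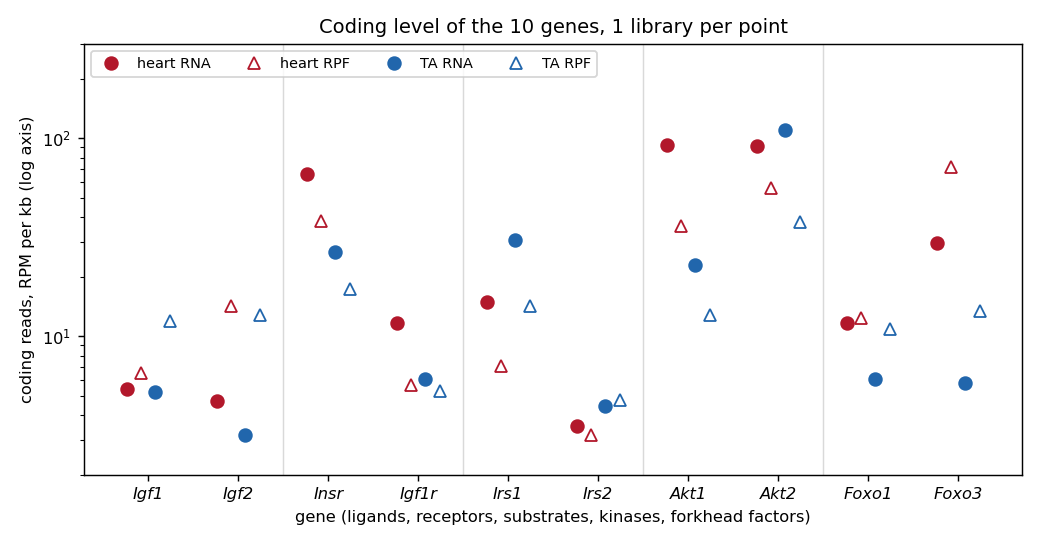
Coding level of each gene in the 4 libraries, in RPM per kb on a log axis, 1 point per library. Akt1, Akt2 and Insr sit at the top in heart RNA, Akt2 alone in TA RNA at 110 RPM per kb, and Foxo3 footprints in heart reach 71.7.

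The ligands had few coding RNA reads, and more footprints per coding RNA than the median gene. In level their footprints were moderate. Per kb Igf1 had 6.50 RPM in heart and 12.0 in TA, and Igf2 14.2 and 12.9, beside 9.69 and 7.13 for the median gene. Igf1, the circulating and locally made growth factor of muscle, had 2.57 RPM of coding RNA in heart and 2.48 in TA (24 and 40 reads), and 3.08 RPM of footprints in heart and 5.67 in TA. Its RNA was not separated between the tissues by counting error (log2 ratio 0.05, interval -0.75 to 0.81), while its footprints were fewer in heart (-0.86, interval -1.27 to -0.49). The 3'UTR, which is long in this gene and better covered, held 38.85 RPM of RNA in heart and 46.27 in TA. Relative to the median gene the Igf1 ratios became -0.65 in RNA and -1.46 in footprints. Igf2, the growth factor best known from fetal tissues, had 2.68 and 1.80 RPM of coding RNA in heart and TA (25 and 29 reads) and 8.11 and 7.38 RPM of footprints. Neither Igf2 ratio was separated from 0 by counting error (RNA 0.55, interval -0.26 to 1.39, and footprints 0.13, interval -0.14 to 0.41), and both turned negative relative to the median gene (-0.15 and -0.46). In heart Igf2 footprints exceeded those of Igf1 per kb 2.19 times (interval 1.70 to 2.84), and in TA the ratio was 1.08 (0.878 to 1.34). The RNA kit named in the labels and the counting are not stated to use strand, so reads from transcripts antisense to Igf2 cannot be told apart from its own.

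The insulin receptor outweighed the IGF1 receptor in every library. Insr, which binds insulin with highest affinity, had 273.45 RPM of RNA and 157.85 of footprints in heart, and 109.43 and 71.74 in TA. It was 2.50-fold higher in heart in RNA (log2 1.32, interval 1.23 to 1.41) and 2.20-fold higher in footprints (1.14, 1.06 to 1.21). Relative to the median gene these differences were 0.62 and 0.54, under the 2-fold size used here to call a difference. Igf1r, the main signalling receptor for both IGFs, had 47.95 RPM of RNA and 23.38 of footprints in heart, and 25.03 and 21.62 in TA. Its RNA was 1.91-fold higher in heart (0.94, 0.74 to 1.14), but its footprints were not separated by counting error as deposited (0.11, -0.05 to 0.27) and lower relative to the median gene (-0.49). Per kb, Insr exceeded Igf1r 5.69-fold in heart RNA and 4.36-fold in TA RNA, and 6.74-fold and 3.31-fold in footprints. The intervals of these ratios did not overlap between the tissues, so the balance of the receptors leaned further to Insr in heart within counting error.

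The substrates went the other way from the receptors, with higher values in TA. Irs1, the docking protein most used by insulin in skeletal muscle, had 55.23 RPM of RNA and 26.14 of footprints in heart, and 113.46 and 52.40 in TA. It was 2.05-fold lower in heart in RNA (log2 -1.04, interval -1.18 to -0.90) and lay on the 2-fold threshold in footprints (-1.0, -1.13 to -0.87). Relative to the median gene Irs1 was lower by more (-1.73 and -1.60). Irs2, the related docking protein prominent in liver and beta cells, had 13.91 RPM of RNA and 12.54 of footprints in heart, and 17.64 and 18.96 in TA. Its log2 ratios of -0.34 (-0.65 to -0.04) and -0.59 (-0.79 to -0.40) were under the 2-fold size as deposited but reached -1.04 and -1.19 relative to the median gene. Irs1 exceeded Irs2 per kb in each library, from 2.24-fold in heart footprints to 6.90-fold in TA RNA. The deposited Irs2 model has no 5'UTR and a 3'UTR of only 46 nt, so only its coding values are described.

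Akt1 and Akt2 shared the RNA evenly in heart, whereas Akt2 dominated in TA. Akt1, the isoform tied mainly to growth and survival, had 133.68 RPM of RNA and 51.93 of footprints in heart, and 32.98 and 18.57 in TA. Akt2, the isoform tied mainly to insulin-stimulated glucose uptake, had 131.32 RPM of RNA and 81.30 of footprints in heart, and 157.81 and 54.25 in TA. The ratio of Akt2 to Akt1 per kb was 0.980 (0.905 to 1.06) in heart RNA and 4.78 (4.35 to 5.25) in TA RNA. In footprints the tissues stood closer, with 1.56 (1.46 to 1.67) in heart and 2.92 (2.64 to 3.22) in TA. Akt1 was 4.04-fold higher in heart in RNA (log2 2.02, 1.87 to 2.17) and 2.79-fold higher in footprints (1.48, 1.34 to 1.63), the latter falling to 0.88 relative to the median gene. For Akt2 the layers had opposite signs: RNA was slightly lower in heart (-0.26, -0.36 to -0.17) and footprints higher (0.58, 0.49 to 0.68). Relative to the median gene they were -0.96 and -0.02. The genes are paralogs, and the counting of reads that fit more than 1 gene was not given in the sources used here.

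Among the forkhead factors Foxo3 showed the widest gap between tissues of the 10 genes as deposited, in RNA and in footprints, while relative to the median gene Irs1 was farther from 0 in RNA (-1.73 against 1.64). Foxo3, an activator of autophagy and atrophy genes, had 59.51 RPM of RNA and 144.25 of footprints in heart, and 11.74 and 27.04 in TA. It was 5.03-fold higher in heart in RNA (log2 2.33, 2.10 to 2.59) and 5.32-fold in footprints (2.41, 2.30 to 2.53), and stayed over 2-fold relative to the median gene (1.64 and 1.81). The RNA interval overlaps that of Akt1 (2.02, 1.87 to 2.17), so the first place in RNA rests on point values. Foxo1, which also acts on metabolic genes, had 22.90 RPM of RNA and 24.30 of footprints in heart, and 11.86 and 21.27 in TA. Its RNA ratio was 0.94 (0.66 to 1.24) and its footprint ratio 0.19 (0.03 to 0.35), the latter turning to -0.41 relative to the median gene. Foxo3 exceeded Foxo1 per kb 5.76-fold in heart footprints and 1.23-fold in TA footprints, while in TA RNA counting error did not separate them (0.960, 0.781 to 1.18).

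By the 2-fold size, 3 of 10 genes were higher in heart in RNA (Insr, Akt1, Foxo3), beside 35.0% of all genes tested, and 1 was lower (Irs1), beside 3.88%. In footprints the counts were again 3 and 1, with the same genes, beside 30.1% and 5.06%. Relative to the median gene the RNA counts were 2 higher (Akt1, Foxo3) and 2 lower (Irs1, Irs2), beside 13.5% and 10.4%, and the footprint counts 1 higher (Foxo3) and 3 lower (Irs1, Irs2, Igf1), beside 11.9% and 12.0%. The median log2 ratio of the 10 genes was 0.74 in RNA and 0.16 in footprints, beside 0.70 and 0.60 for all genes.

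**Figure D2:**
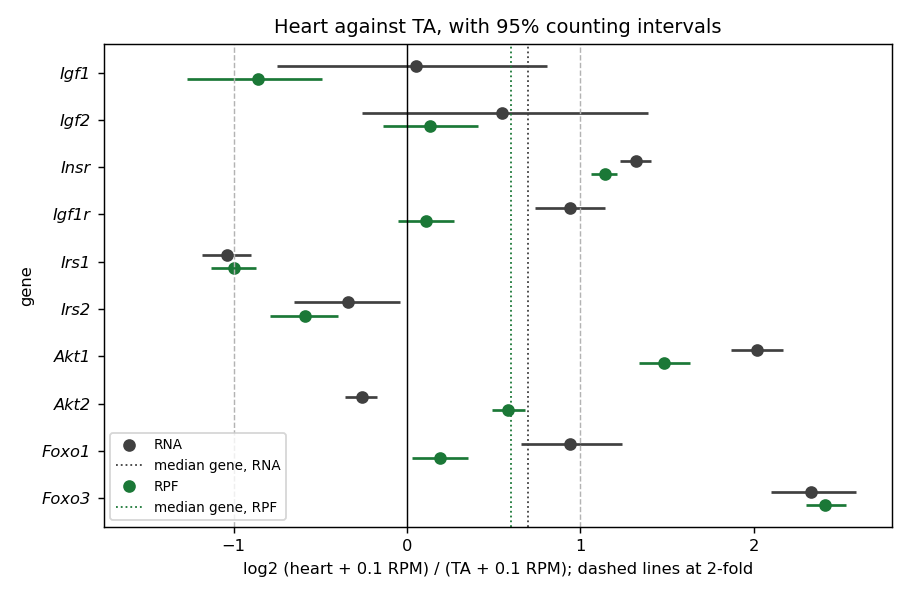
Log2 ratio of heart to TA for each gene, with RNA and footprints (RPF) as separate points, bars showing 95% counting intervals, dashed lines at 2-fold and dotted lines at the median of all genes. Foxo3 and Akt1 lie farthest to the right, Irs1 at about -1 in both layers, and Igf1, Igf1r, Akt2 and Foxo1 have RNA and footprint points that stand apart.

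Translational efficiency, the coding footprints per coding RNA relative to the median gene of the same tissue (log2), was highest in the ligands and the forkhead factors. Igf2 had 2.00 in heart and 2.24 in TA, and Foxo3 1.72 and 1.46, each over 2-fold above the median gene in both tissues. Igf1 (0.69 in heart, 1.42 in TA) and Foxo1 (0.53 and 1.10) passed 2-fold in TA. Efficiencies in heart thus exceeded 2-fold above the median in 2 of 10 genes, beside 16.0% of all genes, and in TA in 4 of 10, beside 15.4%. No gene of the 10 was 2-fold below the median in heart, beside 17.8% of all genes, and only Akt2 was in TA (-1.28, interval -1.37 to -1.19), beside 18.7%. The receptors and substrates lay nearer the median: Insr was at -0.35 in both tissues, Igf1r at -0.59 and 0.05, Irs1 at -0.64 and -0.85, and Irs2 at 0.29 and 0.36. Akt1 was at -0.92 in heart and -0.57 in TA. As plain ratios of footprints to RNA, not relative to the median gene, 3 of 10 lay 2-fold or more below 1 in heart (Igf1r, Irs1, Akt1), beside 29.8% of all genes, and 2 in TA (Irs1, Akt2), beside 25.3%.

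The efficiency of the ligands rests on 24 to 40 reads of coding RNA and depended on where RNA was counted. With RNA counted over coding sequence and 3'UTR per kb, Igf2 was at 0.86 in heart and 1.51 in TA, Igf1 at 0.89 in TA and Foxo1 at 0.75 in TA, so 3 of these 4 values fell under 2-fold. Irs1 by contrast moved to -1.31 and -1.78, past 2-fold below. With the trend of efficiency with coding length removed, Insr, whose coding sequence of 4113 nt is long beside the median of 1422 nt, turned from -0.35 to 0.29 in heart and 0.27 in TA, and Igf1r in heart from -0.59 to 0.05. The same correction took Igf1 in TA from 1.42 to 0.90, under 2-fold, which left 3 of 10 genes above in TA.

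Akt2 was the gene of the 10 whose efficiency differed most between the tissues. It stood at -0.25 in heart and -1.28 in TA, a difference of 1.03 (interval 0.89 to 1.16), larger than in 96.2% of 9635 genes and 1.01 with RNA counted over coding sequence and 3'UTR. It was the only one of the 10 past 2-fold higher in heart, beside 4.07% of all genes, and 0 of 10 were 2-fold lower, beside 2.34%. Smaller differences with intervals below 0 were seen for Igf1r (-0.64, -0.90 to -0.39), Foxo1 (-0.57, -0.90 to -0.25) and Akt1 (-0.36, -0.56 to -0.15). Insr showed 0.00 (-0.12 to 0.11) and Irs2 -0.07 (-0.43 to 0.28), and the Igf1 difference of -0.73 had an interval from -1.57 to 0.07.

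**Figure D3:**
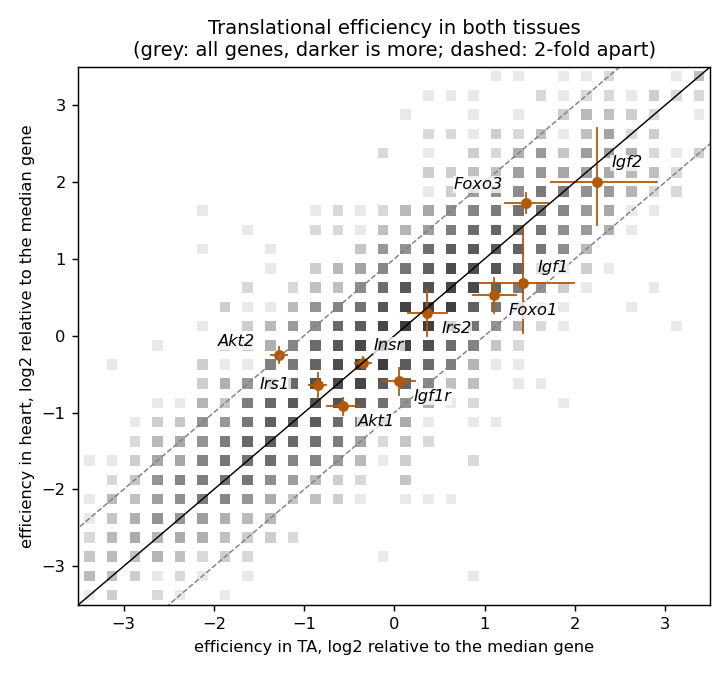
Translational efficiency in heart against TA (log2 relative to each tissue's median gene), with the 10 genes named, bars at 95% counting intervals and all genes as grey squares. Igf2 and Foxo3 sit at the upper right, and Akt2 lies past the upper dashed line that marks a 2-fold difference, at -1.28 in TA and -0.25 in heart.

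Ribosome footprints on the 5'UTR were densest, relative to the coding sequence, in Insr. Its 5'UTR held 18.39 RPM of footprints in heart and 11.72 in TA (519 and 335 reads), a density per nt that was 0.980 of the coding density in heart (interval 0.893 to 1.07) and 1.37 in TA (1.22 to 1.54). The median gene had 0.201 and 0.130. RNA was less dense there: the Insr 5'UTR held 11.56 RPM of RNA in heart and 3.91 in TA, 0.356 and 0.301 of the coding density. The ratio of footprint RPM to RNA RPM was 1.59 (1.29 to 1.97) on the 5'UTR and 0.577 on the coding sequence in heart, and 3.0 (2.28 to 3.98) and 0.656 in TA. On the 5'UTR the median gene had 0.664 in heart and 0.560 in TA. Insr was at percentile 73.1 of genes in heart and 89.5 in TA by this 5'UTR ratio, so it was not extreme in heart. The short frame at the Insr upstream ATG printed above covers only a small stretch of this 5'UTR, and the tables give 1 value for the whole region, so where in it the footprints lie was not measured.

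Of the 9 genes with a 5'UTR to measure, 0 in heart and 1 in TA (Insr) were at least as dense as the coding sequence, beside 15.7% and 11.2% of all genes. Akt1 (0.548 in heart and 0.416 in TA) had the denser 5'UTR of the Akt pair, while Akt2 (0.209 and 0.174) holds more upstream start triplets. Igf1r lay at 0.548 and 0.517. Foxo1 had 0.544 (0.432 to 0.680) in heart and 0.180 (0.116 to 0.265) in TA, with no overlap of the intervals and no upstream ATG in its 5'UTR, while Foxo3 lay at 0.112 and 0.128. The 5'UTR of Foxo1 had 1 RNA read in heart and 7 in TA, too few to set these footprints against RNA. Divided by the same ratio of RNA densities, 4 of 9 genes in heart and 5 in TA were at or over 1, beside 49.4% and 40.2% of all genes. Igf2 had no 5'UTR footprint in heart, which allows up to 1.80% of its coding density, and 2 reads in TA. The deposited Igf2 5'UTR (414 nt, against 1099 nt in GENCODE) had only 1 RNA read in heart and 1 in TA. These footprint values therefore cannot be set against RNA either.

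The 3'UTR, where ribosomes are normally scarce, served as the low reference, and Irs1 stood out there. Its 3'UTR held 5.81 RPM of footprints in heart and 13.89 in TA (164 and 397 reads), 0.181 (0.152 to 0.215) and 0.216 (0.193 to 0.242) of the coding density. The median gene had 0.0101 and 0.00483, and Irs1 ranked above 95.1% and 97.7% of genes. Its 3'UTR was also denser in RNA than its coding sequence, 1.81-fold in heart and 2.39-fold in TA, beside 0.741 and 0.788 for the median gene. Igf1r had 0.0776 in TA (0.0611 to 0.0974, 85 reads) but 0.0172 in heart (0.0104 to 0.0267, 20 reads). The other 7 genes with a 3'UTR footprint lay at 0.0282 or below in both tissues.

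**Figure D4:**
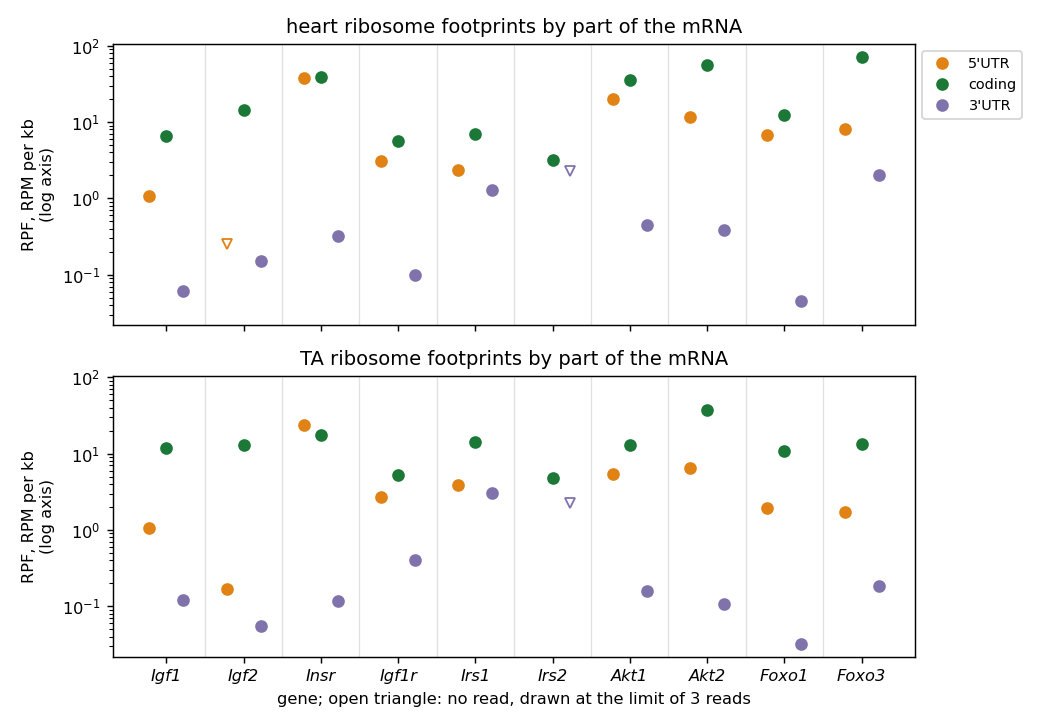
Footprint density on the 5'UTR, coding sequence and 3'UTR of each gene (RPM per kb, log axis), heart above and TA below, with open triangles for regions with no read at the limit of 3 reads. The Insr 5'UTR point lies level with its coding point in heart (37.6 and 38.4) and above it in TA (24.0 and 17.4), and the 3'UTR point of Irs1 is the closest to its coding point among the genes with a 3'UTR read.

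The rest of the pathway was read from a list of 53 genes, of which 52 were listed in at least 1 tissue. In RNA 18 of 48 genes tested were at least 2-fold higher in heart and 5 lower, beside 35.0% and 3.88% of all genes, with a median log2 ratio of 0.74 beside 0.70 for all genes. In footprints the counts were 10 and 5, beside 30.1% and 5.06%, with a median of 0.40 beside 0.60. Adaptors and receptor brakes counted 6 of 9 higher in RNA and 4 in footprints, beside the same 35.0% and 30.1%. The highest was Grb14, an adaptor that inhibits the insulin receptor kinase (3.63 in RNA, interval 3.47 to 3.81, and 4.07 in footprints). Of the lipid kinase and phosphatase group 5 of 9 were higher in RNA and 3 in footprints, the latter near the 30.1% of all genes. Median log2 ratios in RNA and footprints were 1.51 and 0.81 for the adaptors and brakes, and 1.15 and 0.65 for the lipid group. The median of all genes itself lay at 0.70 and 0.60. Counts by role group, here and in the next paragraph, are as deposited and were not repeated relative to that median gene.

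In the glucose branch 2 of 8 genes were higher in heart in RNA and 2 lower, beside 35.0% and 3.88% of all genes. Tbc1d4, the Akt substrate that holds back the glucose transporter GLUT4, was higher in heart (2.90 in RNA and 2.45 in footprints), and its relative Tbc1d1 lower (-2.29 and -2.79). Of 11 mTOR branch genes 1 was higher and 1 lower in RNA, beside the same shares, the lower being the mTOR inhibitor Deptor (-1.83, and -2.04 in footprints). Sesn1, a FoxO target that restrains mTOR complex 1, was higher in heart in both layers (2.85 and 2.94).

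Efficiencies in this list are given by role group, those with medians farthest from the median gene first. Of 9 lipid kinase and phosphatase genes 5 were at least 2-fold below the median gene in heart and 5 in TA, beside 17.8% and 18.7% of all genes, with medians of -1.02 and -1.26. Among them were Inppl1, a lipid phosphatase (-1.84 in heart and -1.62 in TA), and Pik3ca, a catalytic subunit of the lipid kinase (-1.58 and -1.71). The binding protein group, which modulates IGF access to its receptor, had medians of 0.82 and 1.63, led by Igfbp5 (2.07 and 2.45) and Igfbp6 (1.77 and 2.11). In it 3 of 6 genes were 2-fold above in heart and 4 of 6 in TA, beside 16.0% and 15.4% of all genes. Single values moved with the processing but stayed past 2-fold. With the coding length trend removed, Inppl1 in heart and Pik3ca in TA were both at -1.25. With RNA counted over coding sequence and 3'UTR they were at -1.89 and -1.06, and Igfbp5 in heart at 1.42. Group medians were not computed under these alternatives. The glucose branch had 3 of 8 above in each tissue (medians 0.61 and 0.84), beside the same shares. Medians were 0.06 and 0.15 for the adaptors and brakes, -0.23 and -0.16 for the mTOR branch, and 0.35 and 0.32 for the forkhead group. Over the list 7 genes were above and 7 below in heart among 49, beside 16.0% and 17.8% of all genes. In TA 9 were above and 10 below among 50, beside 15.4% and 18.7%, so the list as a whole lay near these shares. Of 48 genes 0 differed 2-fold in efficiency between tissues, beside 4.07% higher and 2.34% lower of all genes. The extremes at the low end were Igfbp7 (-0.96) and Ptpn1, a phosphatase of the insulin receptor (-0.75). At the high end were Rheb, the activator of mTOR complex 1 (0.80), and Grb14 (0.62). The Akt2 point value of 1.03 was above all of these, but its interval (0.89 to 1.16) overlaps that of Rheb (0.59 to 1.02).

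On the 5'UTR 3 of 48 genes in heart and 2 of 49 in TA were at least as dense in footprints as the coding sequence, beside 15.7% and 11.2% of all genes. The highest were Tsc1, a brake on mTOR (1.18 in heart and 1.14 in TA), and Sh2b1, an adaptor of the insulin receptor (1.11 and 1.12), near the values of Insr. No 5'UTR footprint was found for 5 genes in heart and 10 in TA, including Igfbp7 in both, Pik3ca in both and Igfbp3 in TA, which allows between 2.61% and 61.6% of the coding density in heart and between 4.01% and 96.4% in TA.

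**Figure D5:**
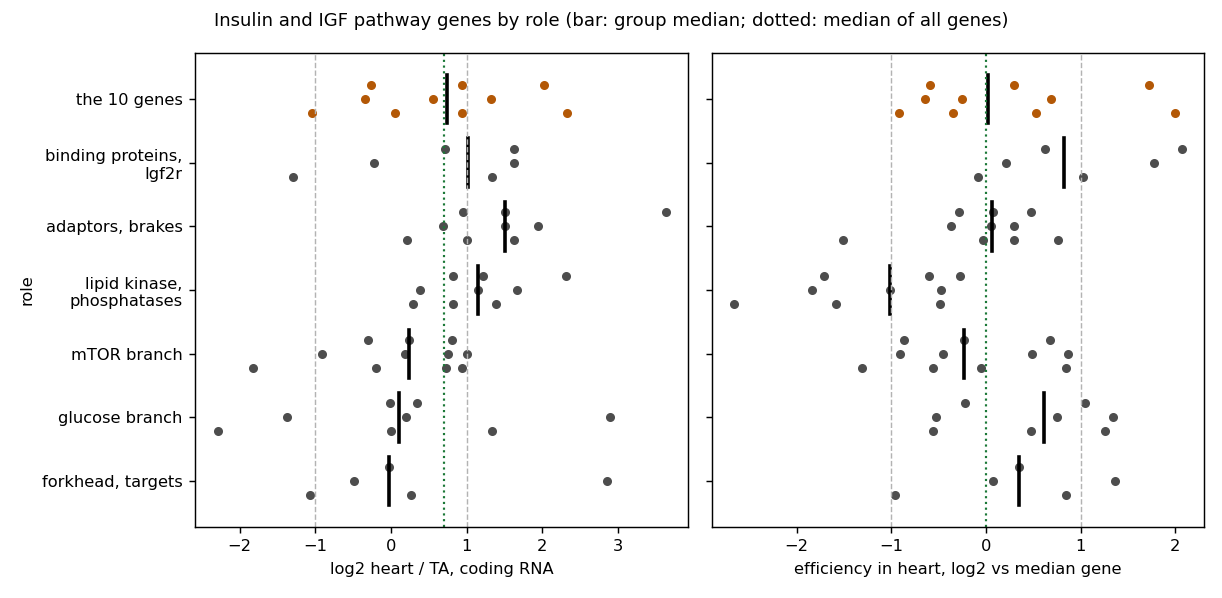
Pathway genes by role and the 10 genes in the top row, 1 point per gene, with the log2 ratio of heart to TA in coding RNA on the left and the log2 efficiency in heart relative to the median gene on the right (black bars, group medians; dotted lines, median of all genes; dashed lines, 2-fold). The lipid kinase and phosphatase group has a median of 1.15 on the left and -1.02 on the right, and the RNA ratios run from -2.29 (Tbc1d1) to 3.63 (Grb14).

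Each of the 10 genes was also matched to the gene with the nearest levels (distance in log2 RPM per kb over the 4 libraries) among 58 candidates from the list and the 10 genes. The closest match was Foxo1 with Igfbp3 at a distance of 0.32, followed by Akt2 with Rheb at 0.37. Rheb had 103 RPM per kb of RNA and 64.8 of footprints in heart and 91.4 and 37.3 in TA. It was matched on these same 4 levels, so its fewer footprints per RNA in TA are not a separate case beside Akt2. Akt1 lay nearest Pik3r1 and Igf1r nearest Shc1 (0.55 each), and Irs1 nearest Foxo4 (0.61). Irs2 (1.63), Foxo3 (1.59), Igf2 (1.35) and Igf1 (1.24) had no near neighbour.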

How the data were processed

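The deposited unit is RPM (columns RPFM and RNAM), per the file headers, and coding values sum to nearly the same total in each library. They cover the coding sequence, 5'UTR and 3'UTR of 1 transcript model per gene, beside each part's length. The labels name RefSeq transcripts as the mapping target, and the submitters' processing notes name Bowtie and mm9. Version, trimming, strand, multi-mapping and the rule for listing a gene were not given in the sources used here. A gene that is not listed therefore has no value, which differs from 0. Coordinates were left out because the reference is not of the mm9 build.

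Low values fell on whole multiples of 1 read (0.0354, 0.107, 0.0350 and 0.0621 RPM in heart RPF, heart RNA, TA RPF and TA RNA) for 100.0% of low values within 0.005 RPM. RPF steps are close to that rounding, so RPF reads are less sure. No count test could be fitted with 1 library per group. Ratios used a pseudocount of 0.1 RPM (which understates changes of low genes) and a minimum of 1 RPM of RNA averaged over the tissues. Efficiencies were centred on the median ratio of footprints to RNA (0.737 in heart, 0.835 in TA). A 2-fold size replaced a test. 5'UTR densities needed at least 30 nt and 1 RPM of coding footprints. Intervals are conditional Clopper-Pearson, except for differences of efficiency, which use a normal approximation on the log scale. The tables were normalized separately per tissue. The code was tested on simulated data and used Python 3.11.15, numpy 2.4.6, pandas 2.3.3, scipy 1.17.1 and statsmodels 0.14.6.

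The 10 genes, the pathway list and the marker lists were chosen with earlier results of these data known. Named pathway genes were the 2 highest and 2 lowest in each of 7 comparisons, with at least 1 RPM of RNA. Some genes were also given values in comparisons where they were not extremes, and some named by it are left out here. Of the other marker lists, fibroblast genes were at least 2-fold higher in heart in 2 of 7 tested and smooth muscle genes in 3 of 4. Start triplets were placed on GENCODE transcripts for 10690 of 10791 heart genes.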

Additional observations from a re-analysis of the deposited data

Results flagged for a closer look

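For each value below the tissues, or the layers within a gene, had point values on opposite sides of a reference, and with 1 library per group the difference was not tested. Insr had a 5'UTR footprint density 1.37 times its coding density in TA and 0.980 times in heart, where the interval (0.893 to 1.07) holds 1. The efficiency of Igf1r was -0.59 in heart and 0.05 in TA, on either side of the median gene, a difference of -0.64, and the TA interval (-0.13 to 0.23) holds 0. Igf1 footprints had a log2 ratio of heart to TA of -0.86 beside 0.05 in RNA, whose interval (-0.75 to 0.81) holds 0. Akt2 footprints had 0.58 beside -0.26 in RNA. Relative to the median gene both layers had negative values in Igf1 (-1.46 in footprints and -0.65 in RNA). In Akt2 footprints were level with that gene (-0.02) and RNA was lower (-0.96), so the layers still stood apart.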

How the results depend on the processing

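Counts of the 10 genes past the size used here stayed within 1.5 times under 66 of 82 alternatives. No gene value past the size changed direction, but some under it did, such as Insr efficiency in heart (-0.35 to 0.29 without the coding length trend) and, relative to the median gene, Igf2 RNA (0.55 to -0.15) and Foxo1 footprints (0.19 to -0.41). Relative to the median gene, 2 genes were lower in heart in RNA, and 1 higher and 3 lower in footprints. Rescaling without the 50 most abundant genes also gave 1 and 3 in footprints. In RNA it left only 1 lower, since Irs2 was at -0.93. With a pseudocount of 1 RPM, 0 were lower in footprints, since Irs1 lies on the threshold. A minimum of 5 RPM of RNA left 1 gene above the median efficiency in heart and 2 in TA, because Igf1 and Igf2 were no longer tested. Without centring, 3 were below in heart and 2 in TA, beside 29.8% and 25.3% of all genes. With RNA counted over coding sequence and 3'UTR, an alternative chosen after seeing the data, 1 was above and 1 below in heart, and 2 above and 2 below in TA. Dividing 5'UTR footprint density by RNA density put 4 genes in heart and 5 in TA at or over 1, beside 49.4% and 40.2% of all genes, some on 1 RNA read. The cause was not tested where none is given. No paired analysis was possible because each group had 1 library. Igf1 and Igf2 coding RNA and several 5'UTR values are limited by depth.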

Other observations

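The density of RNA on the 3'UTR relative to the coding sequence also varied among the genes. For Igf2 the ratio was 2.24 in heart (interval 1.49 to 3.52, 300 reads on the 3'UTR) and 1.68 in TA (1.14 to 2.55, 260 reads). For Igf1 it was 1.13 in heart (0.747 to 1.79, an interval that holds 1) and 1.39 in TA (1.01 to 1.96). Foxo3 had 1.16 and 1.25, both with intervals that hold 1, and Foxo1 0.931 and 1.30. Insr had 0.895 and 1.06, Akt2 0.717 and 0.747, Igf1r 0.639 and 0.769, and Akt1 0.556 and 0.663.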
